A study of Mus musculus with 6 samples.

Results

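Gm genes are mouse gene models that carry only a number after the letters Gm, the placeholder given to predicted genes whose product or function has not been named. Most of those with a known annotation class are long non-coding RNAs, and some are predicted protein-coding genes. The sites described here were chosen by their place in the genome and not by their methylation. They are the autosomal CpG sites whose closest transcription start site (TSS) belongs to a gene named Gm and a number, that lie within 500 bp of this TSS, and that were covered by at least 10 reads in all 6 samples. There were 24920 such sites in 1983 Gm genes, out of 310995 sites chosen in the same way for all 14712 autosomal genes and 2268080 sites in the whole table. The remaining 286075 sites belonged to 12729 other genes, among them 12941 sites of 817 genes whose names end in Rik, a name given to RIKEN cDNA clones. Each site was assigned to its closest TSS only, so a Gm gene that starts beside another gene keeps only the CpG sites on its own side.

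DNA methylation was measured by reduced representation bisulfite sequencing (RRBS), which reads CpG-rich fragments after bisulfite has converted unmethylated cytosines. The cells were GS cells, cultured spermatogonia that include spermatogonial stem cells, grown on a feeder layer of mouse embryonic fibroblasts. All 6 samples had the genotype DBA/Tg14(act-EGFP-OsbY01), a green fluorescent transgene driven by an actin promoter in a DBA background. The 3 Space samples came from cells kept frozen for 6 months on the International Space Station, and the 3 Ground samples from cells kept frozen for 6 months on Earth. Both were analyzed after thawing and passages in culture, so neither group shows cells as they were in the freezer, and there was no group that had never been frozen. Nothing in the labels says whether the 3 replicates were separate thaws or cultures, so the p-values measure only the spread between these samples, which may be technical. The summed reads over the Gm sites ranged from 786944 to 928614 per sample, with a median of 29 to 34 reads at a site. Bisulfite reads without molecular identifiers may be copies of 1 molecule, so the intervals given here cover counting error only. Promoters of spermatogonial genes that had member sites were mostly unmethylated, from 0.239% at *Mael* to 3.76% at *Dazl* as group means. Of 5 fibroblast markers only *Pdgfrb* had sites that passed the filter, and it was as low, at 4.21% ± 5.69 in Space and 1.84% ± 2.06 in Ground (SD, n = 3). RRBS does not measure expression, so these values check the libraries and not the identity of the cells.

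In mammals, promoters that lie in CpG islands usually stay unmethylated whatever the activity of the gene, while CpG-poor promoters are often methylated in cells that do not use them. Long non-coding RNA genes are frequently annotated in pairs with a protein-coding gene that starts in the opposite direction from the same CpG island. RRBS cuts the genome at CCGG sites, so it samples island promoters deeply and CpG-poor promoters by only a few sites.

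The following promoter sequences show the 3 kinds of Gm promoter that the values below turn on. They come from the RefSeq promoter table of the build GRCm38.p6 and run from 250 bases before to 50 bases from the start on, and the capitals mark the CpG sites that were measured. The CpG sites themselves have mm39 coordinates in the deposited table, and they were placed on the sequence by their distance from the TSS. Only 590 of the 1981 Gm names had an entry in this table (29.8%), and no check of base composition over all Gm promoters was therefore made. *Gm27011* stands for the unmethylated promoters. It is a bidirectional promoter lncRNA with its TSS at chromosome 8, position 122677384 of mm39, on the minus strand, 895 bp from the TSS of *Banp*, which codes for a nuclear DNA-binding protein. The entry at chr8:121950596-121950895 (minus strand) held 50 CG, and all 36 member sites in the window fell on one of them. *Gm42788* and *Gm15471* were picked after their values had been seen, as the gene nearest 50% and the gene over 90% with the most sites among entries whose member sites, at least 3, all fell on a CG of the sequence. *Gm42788*, a lincRNA (long intergenic non-coding RNA), starts at chromosome 5, position 149081073 of mm39, on the plus strand, 15679 bp from the next TSS. Its entry at chr5:149144013-149144312 (plus strand) held 12 CG, of which 11 were measured. *Gm15471*, a processed transcript, starts at chromosome 3, position 103710445 of mm39, on the plus strand, 6315 bp from the TSS of *Dclre1b*, a DNA repair gene. Its entry at chr3:103802879-103803178 (plus strand) held 6 CG, of which 3 were measured.
Gm27011: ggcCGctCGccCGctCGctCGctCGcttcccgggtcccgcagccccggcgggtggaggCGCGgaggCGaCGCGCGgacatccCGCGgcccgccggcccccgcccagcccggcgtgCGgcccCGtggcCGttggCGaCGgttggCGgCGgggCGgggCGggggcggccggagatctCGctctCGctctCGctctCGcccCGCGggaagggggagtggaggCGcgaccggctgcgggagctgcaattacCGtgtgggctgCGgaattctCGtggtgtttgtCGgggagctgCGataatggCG
Gm42788: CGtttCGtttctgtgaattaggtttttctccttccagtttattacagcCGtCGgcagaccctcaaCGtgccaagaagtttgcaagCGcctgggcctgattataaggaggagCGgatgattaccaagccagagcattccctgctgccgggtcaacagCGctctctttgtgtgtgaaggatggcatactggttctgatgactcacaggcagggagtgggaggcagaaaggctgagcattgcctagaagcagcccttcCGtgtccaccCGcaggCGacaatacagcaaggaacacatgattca
Gm15471: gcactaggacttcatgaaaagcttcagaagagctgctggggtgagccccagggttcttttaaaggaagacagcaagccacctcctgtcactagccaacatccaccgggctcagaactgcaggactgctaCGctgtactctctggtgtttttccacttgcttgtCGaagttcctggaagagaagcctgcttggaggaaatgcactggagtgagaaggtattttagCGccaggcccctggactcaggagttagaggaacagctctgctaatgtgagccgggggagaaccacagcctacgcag

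The 36 printed CpG sites of *Gm27011* had mean levels of 0.721% to 2.79%. The gene as a whole, with 73 sites, stood at 1.58%, 2.07% and 1.41% in the Space samples and at 0.920%, 1.65% and 2.21% in the Ground samples. These values overlap and none stands apart. At *Gm42788* the printed sites ranged from 44.1% to 79.7%. The 3 CpG sites just downstream of the start had 44.1%, 49.6% and 49.2%, below all 8 sites upstream of it, which had 60.4% to 79.7%. These 3 sites were covered by only 11 to 17 reads in a sample, and the 8 upstream sites by 10 to 27. The SD between replicates reached 20.4 points at an upstream site. At the 3 downstream sites it was 11.3 to 21.7 points in Space and 11.4 to 25.3 points in Ground (n = 3), and the step was not tested. In Space they stood at 50.3% to 52.9%, close to the lowest upstream site at 54.2%. In Ground they stood at 37.9% to 46.5%, against 66.7% at that site. Over its 17 sites the gene stood at 62.8%, 72.8% and 72.8% in Space and at 67.8%, 73.3% and 74.9% in Ground. The 3 sites of *Gm15471* had 93.5% to 96.9%, and the gene stood at 95.6%, 95% and 90.9% in Space and 100%, 100% and 92.2% in Ground. It was read by only 30 to 75 reads per sample in all, so that a sample at 100% is not told apart from one a few points lower. The table as a whole has a median of 7 CG per entry, and 99.1% of its entries have fewer than *Gm27011*. Gm entries outside chromosome 18 were compared where at least 3 member sites lay in the window and all fell on a CG. The 43 such genes with a mean level under 10% had 11 to 53 CG, and the 3 remaining genes had 6 to 12. *Gm42788* and *Gm15471* are among these 3. Promoters with fewer measured sites are left out by this rule. How CG number and level go together over Gm promoters was not tested.

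Most Gm promoter sites were unmethylated, as were those of other genes, but a tail of methylated sites was several-fold larger in the Gm genes. A mean of 96.3% of the Gm sites had a level under 20%, compared with 99.4% of the sites of other genes. The share of sites with an intermediate level of 20% to 80% was 1.63%, 1.58% and 1.51% in the Space samples and 1.68%, 1.52% and 1.43% in the Ground samples. In other genes the same share was 0.281% to 0.364%, so that every sample had a higher share in the Gm genes, by 1.14 to 1.31 percentage points. The mean excess was 1.25 ± 0.0657 points (SD, n = 6, exact sign-flip permutation test over the 6 samples, two-sided, p = 0.03125). This is the smallest p that 6 samples can give, and since they share a genotype it says only that the difference had the same sign in each of them. Sites over 80% made up 2.14% of the Gm sites and 0.259% of the other sites, and this share was higher in the Gm genes in 6 of 6 samples. Fully methylated sites, with every read methylated, made up 0.783% of the Gm sites and 0.102% of the other sites. In the plot of level classes the Gm curve lies above that of other genes from 10% on, with a second rise at 90% to 100%. Among the classes from 20% to 90%, none held as many Gm sites as the class from 90% to 100%, where the share was 1.73% ± 0.0362 in Space and 1.71% ± 0.0327 in Ground (SD, n = 3).

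**Figure D1:**
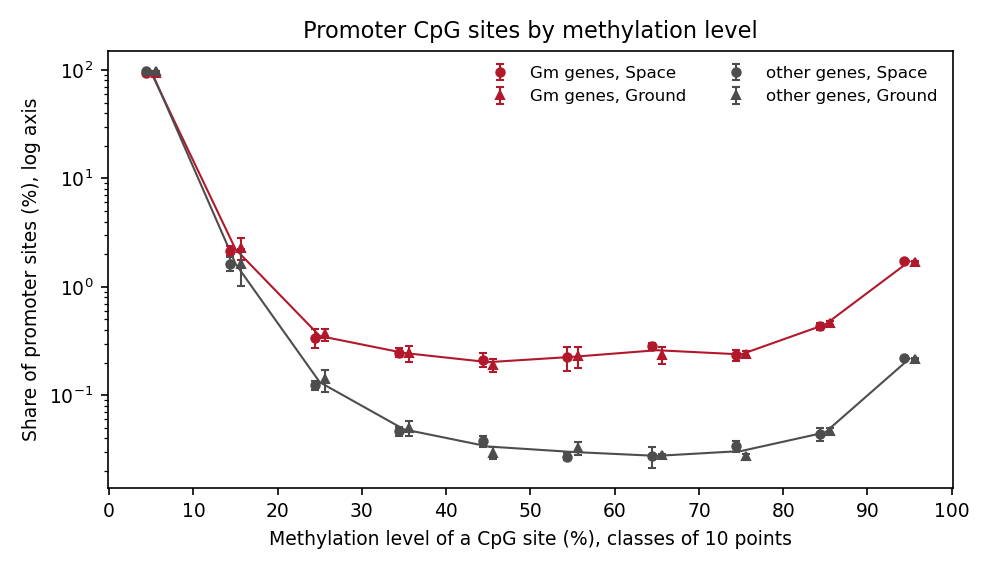
Share of promoter CpG sites (%, log axis) in classes of methylation level of 10 points each, for Gm genes (red) and other genes (grey). Circles are Space and triangles Ground means with SD over 3 replicates, and lines join the means of the 6 samples; the Gm share at 90% to 100% is 1.73% in Space and 1.71% in Ground, against 0.219% and 0.216% in other genes.

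The mean level of the Gm sites was 4.74%, 4.47% and 4.48% in the Space samples and 4.80%, 4.37% and 4.21% in the Ground samples. The highest and the lowest value both belong to Ground samples, and the groups overlap. In other genes the mean was 1.99% over the 6 samples, with a range of 1.72% to 2.27%. The excess of the Gm sites was 2.52 ± 0.0441 points (SD, n = 6, exact sign-flip permutation test, p = 0.03125), and it was present in 6 of 6 samples. The Rik genes, whose names are also placeholders, had a mean level of 2.85% and lay between both sets. The Gm sites exceeded them by 1.66 ± 0.0808 points (6 of 6 samples, exact sign-flip permutation test, p = 0.03125). With each gene weighted equally, in place of each site, the excess over other genes was 10.9 points and that over Rik genes 6.24 points. The excess came from few sites. The 887 Gm sites with a mean level of at least 20%, 3.56% of all Gm sites, held 60.5% of the summed level, while in other genes 0.481% of the sites held 17.4%. Gm sites under 20% in a sample had a mean level of 1.80%, compared with 1.63% in other genes, a difference of 0.170 ± 0.0452 points with the same sign in 6 of 6 samples. On each of the 19 autosomes the Gm mean was above that of the other genes. It ranged from 3.52% to 6.21% among chromosomes, against 1.77% to 2.25%.

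**Figure D2:**
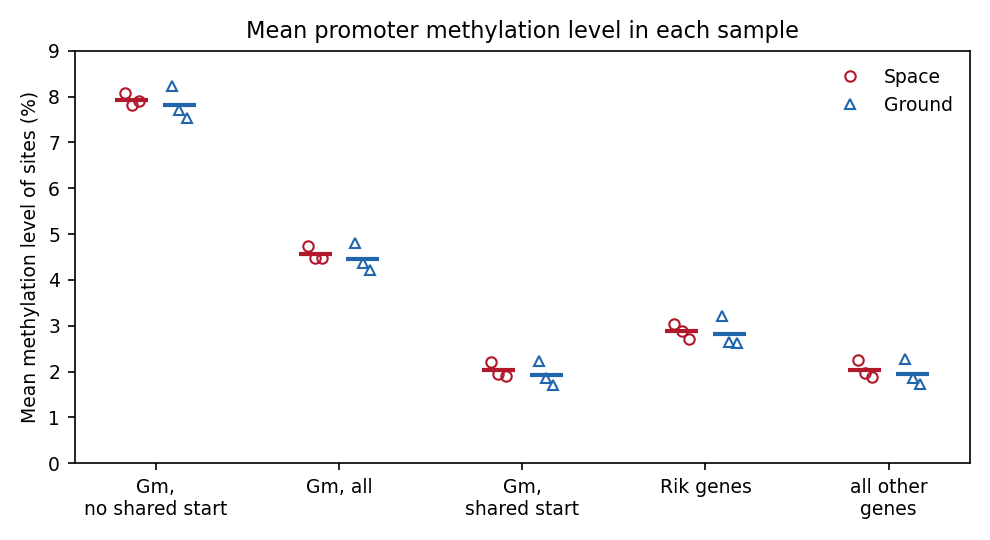
Mean methylation level of promoter CpG sites (%) in each sample, for Gm genes without and with another gene's TSS within 1000 bp, all Gm genes, Rik genes and all other genes. Circles are Space and triangles Ground samples, and bars are means of 3 replicates; Gm genes with no shared start stand at 7.54% to 8.22%, and those with a shared start at 1.70% to 2.23%, within the range of other genes but for 1.70%.

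Counted by gene, the promoters fell mainly into an unmethylated and a methylated class. Of the 1983 Gm genes, 1599 (80.6%) had a mean level under 10%, 112 (5.65%) had 20% to 80%, and 201 (10.1%) had more than 90%. Of the 12729 other genes, 95.2% were under 10%, 1.59% were at 20% to 80% and 2.10% were over 90%, and of the Rik genes 6.00% were over 90%. The methylated Gm genes were covered by few sites. A median of 2 sites was read in the genes over 90%, compared with 11 in those under 10%.

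The Gm genes with the most member sites, outside chromosome 18, were all unmethylated. *Gm57443*, on chromosome 2, had 77 sites and a mean level of 1.46%, and *Gm43573*, an antisense gene 1403 bp from the TSS of the adhesion receptor gene *Adgrl2*, had 75 sites and 1.72%. *Gm27011* with 73 sites stood at 1.64%. *Gm50475*, 328 bp from *Tmem200b*, also had 73 sites and a mean level of 1.27%. *Gm27040*, 585 bp from the TSS of the heparan sulfate sulfotransferase gene *Hs3st4*, had 72 sites and 1.22%. The genes with the most sites in the remaining annotation classes were alike in this. They were the lincRNA *Gm13620* at 1.54%, the processed transcript *Gm12610* at 2.39%, the protein-coding *Gm266* at 1.78% and the sense intronic *Gm47920* at 2.37%. *Gm12610* starts 199 bp from *Cdkn2a*, which codes for cell cycle inhibitors, and *Gm47920* starts 795 bp from *Zmiz1*, a transcriptional coregulator gene. Among these genes *Gm57443* had the largest mean SD within groups, 1.11 points. It had 3.78% in the third Space replicate and 0.533% to 1.62% in the other samples. *Gm266* had 1.56%, 0.417% and 1.52% in Space and 3.06%, 2.41% and 1.73% in Ground, each Space sample being below each Ground sample. *Gm13620* had 3.62% in the first Space replicate and 0.634% to 1.58% in the other samples.

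The 3 highest Gm genes with at least 5 sites, outside chromosome 18, were evenly methylated in every sample. *Gm26971*, a sense intronic gene on chromosome 8, had 96.3% to 98.0% in Space and 97.4% to 99.01% in Ground. *Gm10863*, which starts 800 bp from *Sox10*, a transcription factor gene of the neural crest, had 96.6% to 97.7% in Space and 96.8% to 97.8% in Ground. *Gm34939*, an antisense gene 1847 bp from *Smarcd1*, which codes for a subunit of chromatin remodelling complexes, had 94.7% to 100% in Space and 95.4% to 99.5% in Ground. In all 3 genes the groups overlapped. The 95% Wilson interval of a sample's level reached at most 2.95 to 3.81 points to either side in these genes.

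Intermediate levels were found in a minority of Gm genes and were held evenly within some of them. Sites whose mean level lay at 20% to 80% numbered 358, in 148 genes, of which 70 held a single such site and 16 held 5 or more, 121 sites in all. Of the 1261 Gm genes with at least 5 sites, 54 (4.28%) had a site at 20% or more, compared with 1.11% of the 10744 other genes with as many sites. All sites of 10 Gm genes were between 20% and 80%, and all sites of 7 Gm genes were over 80%. Outside chromosome 18, the genes nearest 50% were *Gm8378* at 49.8%, *Gm26978* at 52.0% and *Gm56529* at 54.1%. *Gm26978*, a sense intronic gene, had 45.9%, 56.0% and 51.4% in Space and 47.98%, 51.1% and 59.8% in Ground, which overlap. Reads were not split by allele here.

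Most Gm promoters that share their start region with another gene were nearly unmethylated. Of the 1983 Gm genes, 906 (45.7%) had the TSS of another gene within 1000 bp, against 28.6% of the other genes. The neighbour was on the opposite strand in 848 of the 906 and was annotated as protein-coding in 822. The sites of these Gm genes had a mean level of 2.22%, 1.94% and 1.91% in Space and 2.23%, 1.86% and 1.70% in Ground. Gm genes with no such neighbour had 8.08%, 7.82% and 7.89% in Space and 8.22%, 7.70% and 7.54% in Ground. All 6 values with a shared start thus lay below all 6 values without one, and the mean difference was -5.90 ± 0.0705 points (6 of 6 samples, exact sign-flip permutation test, p = 0.03125). In other genes the corresponding difference was only -0.394 points, and the difference between both differences was -5.50 ± 0.0847 points (6 of 6 samples, exact sign-flip permutation test, p = 0.03125). By gene, 191 of 1077 Gm genes without a shared start (17.7%) had a mean level over 90%, and 10 of 906 with one (1.10%). *Gm10863*, described above, is among these 10. By distance to the next TSS, the Gm level was 1.76%, 1.63%, 2.60% and 2.41% in the 4 classes up to 2 kb, 7.20% at 2 to 5 kb, 9.71% at 5 to 20 kb and 11.1% beyond 20 kb. Other genes stayed between 1.66% and 2.47% over the same classes. Gm genes with a shared start still exceeded other genes with a shared start, by 0.283 ± 0.0268 points in 6 of 6 samples.

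The excess was largest where few sites were covered. Gm genes with 1 or 2 member sites had a mean level of 40.1%, those with 3 to 5 had 22.1%, those with 6 to 10 had 6.43%, those with 11 to 20 had 2.46%, and those with more than 20 had 1.69%. In other genes the same classes had 24.7%, 10.9%, 3.15%, 1.88% and 1.57%. A Gm gene had a median of 8 member sites and another gene 18, and 23.0% of the Gm genes but 8.47% of the other genes had only 1 or 2. The number of sites thus differed between the sets together with the level. Within each of the 5 classes the Gm sites were nevertheless higher in 6 of 6 samples, by 15.4 ± 0.347 points in the class of 1 or 2 sites and by 0.113 ± 0.0734 points in that of more than 20. Of 18 such comparisons within classes of site number (for all genes and for those without a shared start), gene type and side of the TSS, 17 had the smallest p possible (exact sign-flip permutation test, Benjamini-Hochberg adjusted p = 0.0331 each).

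**Figure D3:**
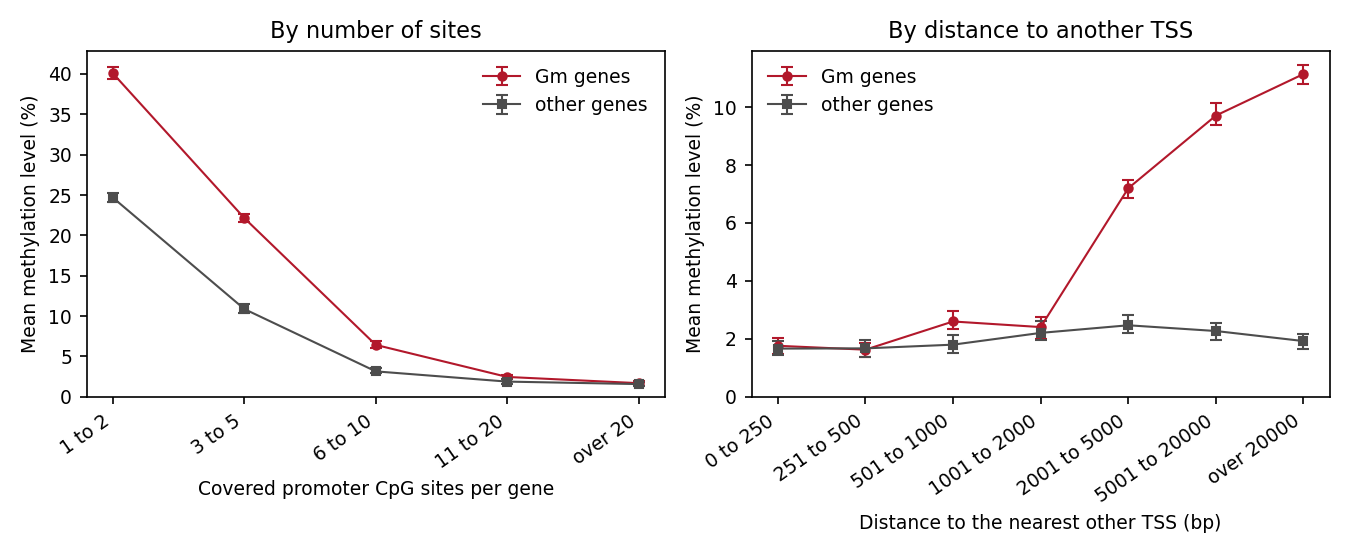
Mean methylation level (%) of promoter CpG sites in Gm genes (red circles) and other genes (grey squares), by the number of covered promoter sites per gene (left) and by the distance to the nearest other TSS in bp (right). Points are means of the 6 samples and bars their range; the Gm level falls from 40.1% at 1 or 2 sites to 1.69% above 20, and lies at 1.63% to 2.60% up to 2 kb and at 7.20% to 11.1% beyond, while other genes stay under 2.5% at all distances.

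The annotation class of the gene went with its level. Of the 1983 Gm genes, 1435 had a class in GENCODE M21 by their gene identifier and 548 had none there. The 512 lincRNA genes had a mean level of 8.41%, and the 255 lincRNA genes with another name 4.70%. The 31 sense intronic genes had the highest mean of the classes with at least 10 Gm genes, 13.6%. The 8 sense intronic genes of other names stood higher, at 24.3%, and were too few for a test. The 588 antisense genes stood at 4.33% (3.51% in other antisense genes), the 109 processed transcripts at 5.10% (2.18%) and the 107 protein-coding Gm genes at 2.89% (1.93%). In the lincRNA, antisense, processed transcript and protein-coding classes the Gm genes were higher in 6 of 6 samples, by 0.822 to 3.72 points. The 81 bidirectional promoter lncRNA genes also stood below their counterparts. They had 1.58%, against 1.74% in the 62 such genes with other names, with a difference of -0.164 ± 0.184 points that was positive in 1 of 6 samples (exact sign-flip permutation test, p = 0.0938, adjusted p = 0.0938). The Gm genes without a class had 2.87%. Within the promoter window, the Gm level was lowest next to the start, with 3.37% in the 100 bp upstream of the TSS, and reached 5.62% in the outermost 100 bp upstream and 6.46% in the outermost 100 bp downstream. Other genes ranged from 1.89% to 2.58% over the same positions.

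A few Gm promoters held single CpG sites that stood far from their neighbours. Of 21545 pairs of adjacent Gm sites of a gene at most 50 bp apart, 18 (0.0836%) differed by more than 50 points in mean level, in 11 genes, against 0.00612% of the pairs of other genes. The clearest case, singled out after its values were seen, was *Gm57020*, whose TSS lies at chromosome 9, position 123725016 of mm39, on the plus strand. It held the 14 Gm sites with a mean of more than 200 reads. Of its 20 member sites, 19 had mean levels of 79.6% to 97.7%. The remaining site, with its cytosine at position 123725503, had 0.305%, 0% and 0.332% in Space and 1.09%, 0.388% and 0% in Ground, at no fewer than 235 reads in a sample. The CpG sites 12 bp before and 3 bp after it had means of 84.5% and 97.7%. In *Gm56529* the site at chromosome 12, position 111471326 had 0% between sites of 60.9% and 62.2%, and in *Gm26978* a site had 1.42% next to 61.4%. The genome sequence of these cells at such positions was not examined here.

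The replicate spread of the Gm sites was close to that of other sites of the same level. Over all sites, the SD of the 3 replicate levels averaged 2.18 points in Space and 2.15 in Ground for Gm sites, and 1.88 and 1.87 for other sites. This comparison mixes levels, since the binomial error of a level is largest near 50%. Within the class of 20% to 80%, the median SD of the 358 Gm sites was 9.61 points in Space and 8.73 in Ground, and that of the 622 other sites was 8.28 and 9.40. The Gm sites had the higher median in Space and the lower in Ground. The mean SD in this class was 9.89 and 10.02 points for Gm sites and 9.36 and 10.4 points for other sites. The binomial error of a single level at the read depths of these Gm sites averaged 9.70 and 9.83 points. An SD of 3 values falls below such an error on average, so closeness of both does not mean that only read sampling was seen. The within-group Pearson chi-square per degree of freedom, which is 1 where the reads scatter as independent draws, was 1.30 in Space and 1.37 in Ground for Gm sites and 1.30 and 1.54 for other sites. It was lower in the unmethylated Gm sites under 5%, with 1.14 in Space and 1.16 in Ground. Intermediate Gm sites were read less deeply than unmethylated ones, with medians of 22 to 24 reads against 30 to 32. With 3 replicates per group, and with neighbouring sites that share reads, no test of the spread was made.

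**Figure D4:**
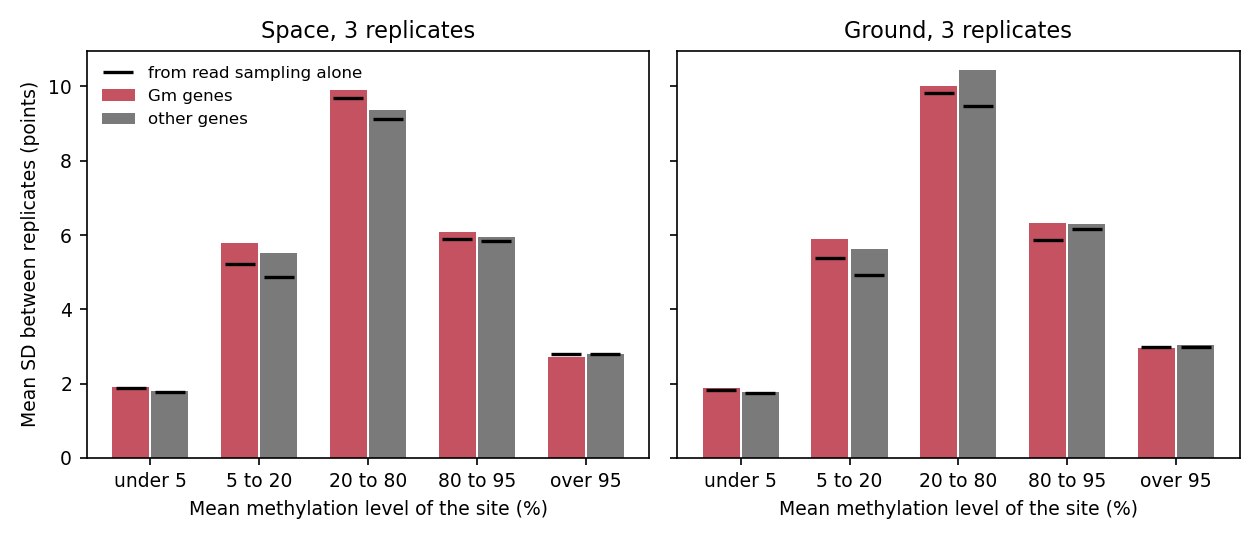
Mean SD between the 3 replicates (percentage points) of promoter CpG sites by class of mean level, for Gm genes (red) and other genes (grey), in Space (left) and Ground (right). Black dashes, labelled as read sampling alone, are the mean binomial error of a single level at the read depth. An SD of 3 values falls below this error on average. For Gm sites at 20% to 80% the bars reach 9.89 and 10.02 points and the dashes 9.70 and 9.83.

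The genes with the largest spread between replicates, outside chromosome 18, all had intermediate mean levels. *Gm17728*, a protein-coding model on chromosome 17, had 16.7%, 45.5% and 19.6% in Space and 34.4%, 34.6% and 8.33% in Ground. *Gm38832* had 54.2%, 71.8% and 66.7% in Space and 54.4%, 46.2% and 77.3% in Ground. *Gm48539* had 66.7%, 86.5% and 68.6% in Space and 66.7%, 88.5% and 70.0% in Ground, so that replicate 2 was the high sample in both groups. *Gm13393* had 37.0%, 50.7% and 45.4% in Space and 56.1%, 47.3% and 29.1% in Ground. *Gm35135* had 15.3%, 33.1% and 41.1% in Space and 25.97%, 10.1% and 23.0% in Ground. In each of these 5 genes the groups overlap, and the SD within a group reached 6.94 to 16.1 points. The 95% Wilson interval of a single sample reached at most 6.84 to 11.7 points to either side in these genes.

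The comparison of Space with Ground asks whether 6 months of frozen storage in orbit left a difference in DNA methylation. Over all Gm sites, no difference was found beyond the spread between samples. The mean level was 4.56% ± 0.151 in Space and 4.46% ± 0.307 in Ground (SD, n = 3), a difference of 0.0995 points (exact permutation test, two-sided, p = 0.6). With 3 against 3 samples, this test cannot go below 0.1. The excess of Gm over other sites was 2.53 ± 0.0635 points in Space and 2.51 ± 0.0220 points in Ground, and these differed by 0.0216 points (exact permutation test, p = 0.9). The share of Gm sites at 20% to 80% was 1.57% ± 0.0644 in Space and 1.54% ± 0.128 in Ground (p = 0.8, exact permutation test). Gm genes with a shared start differed by 0.0922 points (p = 0.6) and those without one by 0.109 points (p = 0.7, exact permutation tests). Among the 1261 Gm genes with at least 5 sites, 51.5% had a higher level in Space, against 54.1% of the other genes, and the median absolute difference was 0.685 points, against 0.574.

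At single sites and promoters, no Gm feature passed the test. A quasi-binomial test of methylated and unmethylated reads, with the dispersion between replicates moderated by limma and Benjamini-Hochberg adjustment, called 0 of 1219 Gm sites with a mean level of 5% to 95%. It also called 0 of the 92042 sites of the whole table at this level (0.0%). At an unadjusted p under 0.05, 62 Gm sites (5.09%) passed, against 4.75% of all sites tested, and the lowest adjusted p of a Gm site was 0.893 with limma-moderated dispersion. The same test on reads summed per promoter, for genes with at least 3 sites, called 0 of 1524 Gm promoters and 0 of all 13414 promoters (0.0%). An unadjusted p under 0.05 was reached by 53 Gm promoters (3.48%), against 4.78% of all promoters. The quasi-likelihood test of edgeR and limma on log2 ratios each called 0 of 1524 Gm promoters and 0 of all 13414 promoters. An unadjusted p under 0.05 was reached by 60 Gm promoters (3.94%) in edgeR, against 4.1% of all promoters, and by 71 (4.66%) in limma, against 4.7%.

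Among Gm genes with at least 5 sites outside chromosome 18, *Gm7097* had the smallest promoter p and the largest difference. It is an antisense gene whose TSS lies at chromosome 10, position 70120783 of mm39, on the minus strand, 39853 bp from the TSS of *Slc16a9*, a transporter gene. The study names this gene and another Gm gene, *Gm15562*, as differentially methylated. It lists *Gm15562* as hypomethylated in Ground GS cells and expressed only in them, and that gene is not described here. *Gm7097* is listed as hypermethylated in Space GS cells, and neither group was reported to express it. Its methylation call came from the same samples, so the values here are not independent evidence. Over its 11 member sites, the level was 41.0%, 16.4% and 35.6% in the Space samples and 11.9%, 1.82% and 7.31% in the Ground samples. Each Space sample was above each Ground sample, but the lowest Space sample and the highest Ground sample were only a few points apart. The means were 31.0% ± 12.9 and 7.02% ± 5.06 (SD, n = 3), a difference of 24.0 points (exact permutation test, p = 0.1, the smallest possible, and quasi-binomial test with limma-moderated dispersion, adjusted p = 0.952). Neighbouring sites share reads, so the 11 sites are not separate measurements. The 9 sites at 238 to 392 bp from the TSS were covered by 13 to 25 reads in each sample and stood at 46.0%, 17.9% and 38.7% in Space and 0%, 1.39% and 7.84% in Ground. The 2 sites at 194 and 207 bp had 33 to 66 reads and stood at 34.8%, 14.1% and 28.8% in Space and 35.1%, 2.63% and 6.06% in Ground. At these 2 sites the first Ground replicate was as high as the highest Space sample, and the groups overlapped (exact permutation test, p = 0.4).

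Of the other promoters with the smallest p, *Gm4924* reached 13.9% in a sample and the rest stayed at 5.31% or less in every sample. *Gm4924*, a protein-coding model on chromosome 10 with 9 sites, had 13.6%, 13.9% and 6.90% in Space and 0%, 0% and 1.93% in Ground (difference 10.8 points, exact permutation p = 0.1). *Gm20402*, an antisense gene 1099 bp from the TSS of the transcription factor gene *Foxo1*, had 5.31%, 4.22% and 1.69% in Space and 0.707%, 0.410% and 0.158% in Ground. *Gm31105*, 579 bp from the TSS of the signalling adaptor gene *Gab1*, had 2.07%, 1.75% and 2.65% in Space and 0.497%, 0.339% and 0.647% in Ground. *Gm29292*, 2152 bp from the TSS of the sphingosine kinase gene *Sphk1*, had 3.93%, 2.62% and 2.53% in Space and 1.41%, 1.17% and 0.394% in Ground. In each of these 4 genes the Space samples were all above the Ground samples, which is what the choice by the smallest p favours, and none passed adjustment (adjusted p = 0.952 each, same test). The remaining genes with large differences were intermediate genes whose groups overlapped. *Gm35135* differed by 10.1 points, *Gm56529* by -9.65 points and *Gm8378* by -7.91 points. *Gm56529* had 52.2%, 44.9% and 50.7% in Space and 64.5%, 62.3% and 50% in Ground. *Gm8378* had 57.6%, 37.3% and 42.5% in Space and 50%, 62.3% and 48.8% in Ground. Their exact permutation p-values were 0.3 to 0.4.

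**Figure D5:**
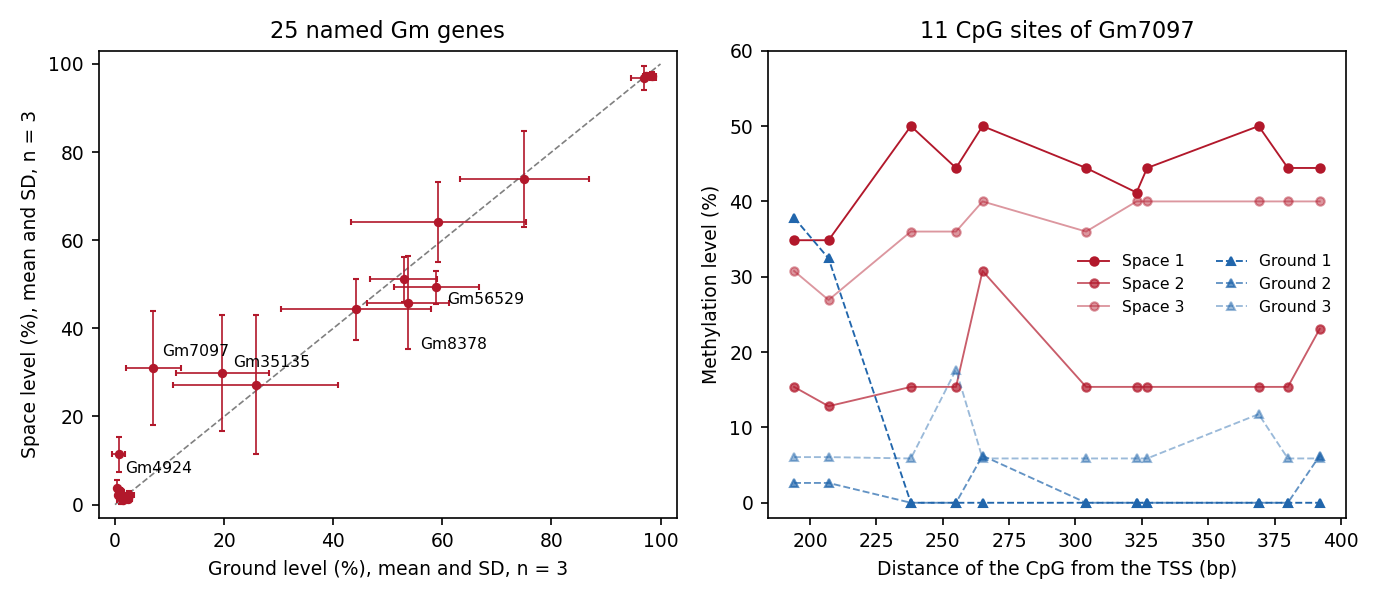
Left, levels of the 25 named Gm genes in Ground and Space (%, means with SD, n = 3), with a dashed line of equality; Gm7097 at 31.0% in Space and 7.02% in Ground lies farthest from it. Right, level (%) of the 11 Gm7097 CpG sites against distance from the TSS (bp), with Space samples as circles and Ground samples as triangles; all Space samples are above all Ground samples at 8 of the 9 sites beyond 220 bp but not at the 2 sites nearer to the TSS, where Ground replicate 1 has 32.4% and 37.8%.

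Differences of more than 20 points between the group means occurred at 18 Gm sites that were higher and 10 that were lower in Space. In all promoter sites the shares were 0.0129% higher and 0.00643% lower, and in Gm sites they were 0.0722% and 0.0401%. The Gm sites thus made up 28 of all 60 such promoter sites. Of these 28 sites, 17 had a mean level of 20% to 80%, and all had one of 5% to 95%. In the wider range, 2.30% of the Gm sites (95% Wilson interval 1.59% to 3.30%) and 0.625% of the other sites (0.443% to 0.881%) were past 20 points, and without *Gm7097* the Gm share was 1.57% (1.01% to 2.44%). In the narrower range the Gm share was 4.75% (2.99% to 7.47%) and that of other sites 3.86% (2.61% to 5.68%). The intervals were apart in the wider range and overlapped in the narrower one, and they count sites as independent although neighbouring sites share reads. In the wider range, 658 of the 1219 Gm sites but 4187 of the 5120 other sites had a level of 5% to 20%. The sets thus differed in level there, and the separate intervals are no test of a Gm excess. Each of the 28 sites was read under 20 times somewhere among the 6 samples, and 9 of them belonged to *Gm7097*, so that the 28 sites lay in 17 genes. The largest difference was at *Gm48975*, a gene singled out after its values were seen, at chromosome 14, position 47660338, 465 bp from its TSS. This site had 25%, 66.7% and 12.5% in Space and 87.5%, 100% and 75% in Ground, a difference of -52.8 points with as few as 10 reads in a sample, and the groups did not overlap. *Gm45371* on chromosome 8 had 2 such sites, at 49 and 76 bp from its TSS, that were 23.7 and 29.1 points higher in Space, and *Gm56529* had 2 that were lower. The 19 of the 28 sites whose groups did not overlap were chosen for their difference, which favours such a result. Several of them are sites of *Gm7097* that share reads. They are given as a description, without the matching share for other genes, and not as a trait of the Gm sites.

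Over the 1219 Gm sites with a mean level of 5% to 95%, all 3 Space samples were above all 3 Ground samples at 64 sites (5.25%), against 4.42% of all promoter sites at this level. All 3 were below at 38 Gm sites (3.12%), against 3.63% of all such sites. The median Space minus Ground difference was 0.440 points over these Gm sites and 0.0736 points over all such promoter sites, and this contrast was not tested.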

How the data were processed

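RRBS libraries of 3 Space and 3 Ground samples were analyzed from 1 table of CpG sites. The coverage counts (reads per site) and the percent methylation (methylated reads per 100 reads) were deposited by the authors. Trim Galore, Bismark 0.24.2, methylKit and the build mm39 are listed in the submitters' processing notes, without parameters. The authors assigned each site to the closest TSS, both strands of a CpG were merged, and replicates were not pooled. Coverage below 10 reads in any sample removed a site, which kept 45.45% of the Gm sites and 57.2% of the other sites within 500 bp, so the values describe well-covered promoters only.

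The number of methylated reads at a site was the product of its coverage and percent, rounded. The level of a set in a sample was the mean over its sites, and the level of a named gene was taken from its summed reads. Genes were put into level classes by the mean over their sites. Sets were compared within samples by exact two-sided sign-flip permutation tests, and groups by exact two-sided permutation tests. Sites with a mean level of 5% to 95% and promoters with at least 3 sites were tested with a quasi-binomial score test on the whole table, with the dispersion moderated by limma 3.58.1 in R 4.3.3 and Benjamini-Hochberg adjustment at 0.05. This test was checked on simulated data. Alternatives were edgeR 4.0.16, limma on log2 ratios, Fisher's exact test, other coverage and distance limits, and leaving out each sample. Tables were handled with pandas 2.3.3 and numpy 2.4.6.

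Named genes with at least 5 sites were the 5 with the smallest promoter p, the 5 with the largest difference, the 5 with the largest replicate SD, the 5 with the most sites, the 3 highest, the 3 nearest 50%, the gene with the most sites of each type with at least 10 Gm genes, and *Gm7097*. Genes on chromosome 18 were left out of all these rankings and of the entries compared for CG number. Of the entries designated for printing, those of *Gm38832* and *Gm34939* had no measured site on a CG and were replaced as stated. Gene types came from GENCODE M21 by identifier. Members and lists were chosen with earlier results of these data known.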

Additional observations from a re-analysis of the deposited data

How the results depend on the processing

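With 1 sample left out, the coverage filter ran over the remaining 5 samples and the smallest p possible was 0.0625, so no test of the differences between sets could pass. The differences themselves kept their sign. They ranged from 2.53 to 2.69 points for Gm against other genes, from 1.25 to 1.31 for the share at 20% to 80%, from 1.58 to 1.83 for Gm against Rik genes, and from -6.26 to -5.91 for Gm genes with against those without a shared start. Under the other alternatives these differences also kept their sign and the smallest p, and they were largest with genes weighted equally (10.9, 3.79, 6.24 and -23.4 points). The Space minus Ground difference of the Gm level ranged from -0.0137 to 0.265 points with 1 sample left out, and turned negative, -0.0137 (exact permutation test, p = 1), only without the third Ground replicate. The counts of Gm sites past 20 points were the values that moved most. With at least 5 reads they were 56 higher and 29 lower, with at least 20 reads 0 and 0, and within 200 bp 3 and 5. Pooling the replicates' reads gave 5 lower. Leaving out 1 sample gave 18 to 29 higher and 8 to 21 lower, with 28 and 21 without the third Space replicate, 29 higher without the first Ground replicate and 20 lower without the third. The cause was not tested. No Gm site or promoter was called under any of the 10 and 16 alternatives. Over the whole table, 5 of 99532 sites were called without the first Ground replicate. Without the second Space replicate, 1 of 13517 promoters was called, and the remaining alternatives called 0 features. With a replicate block, the Gm level difference stayed at 0.0995 points (exact sign-flip permutation test, p = 0.5), and 79 Gm sites (6.48%, against 6.39% of all sites) and 116 Gm promoters (7.61%, against 7.78% of all promoters) had an unadjusted p under 0.05, with 0 called. Same-numbered samples correlated at 0.0355, 0.0435 and 0.0378 over the Gm sites, too weakly to pair them, although each sample correlated best with its own number. Over all 6339 such promoter sites this pattern was absent. There the same-numbered values were 0.0248, -0.0021 and -0.0139, and the highest was 0.0426, for Space replicate 3 with Ground replicate 2. At single sites even the -52.8 points at *Gm48975*, with as few as 10 reads in a sample, were not called, and the reason was not tested.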
